A study of Homo sapiens with 14 samples.

Results

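Ribosome biogenesis and RNA polymerase I were followed through 50 named genes for nucleolar proteins, rRNA processing factors and parts of the RNA polymerase I machinery. The rule is a list of symbols with no threshold on their values, and the list was drawn up with earlier results of these data known. All 50 were found among the 61533 genes of the count table, and all 50 were among the 16056 genes with enough counts to be tested. By role they were 7 genes of RNA polymerase I and its factors, 9 of the small nucleolar ribonucleoproteins (snoRNPs), 12 of small subunit assembly, 18 of large subunit assembly and 4 for nucleolar RNA-binding and regulatory proteins.

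RNA polymerase I transcribes the long ribosomal RNA precursor in the nucleolus. The snoRNPs then guide methyl and pseudouridine marks onto it, and separate sets of assembly factors cut, fold and export the small and the large subunit. MYC family proteins, including n-Myc, the product of MYCN, are known activators of many of these genes, and prominent nucleoli are a described feature of some MYCN-amplified neuroblastomas.

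The study sequenced polyA RNA from SH-EP, an established human neuroblastoma line. All groups reported here are SH-EP cells whose labels name n-Myc, and they differ in SPARK-ON and in treatment. The design text describes SPARK-ON n-Myc as expressed in a single clone, at a level under the threshold for phase separation, where lenalidomide brings on n-Myc phase separation at a constant protein level. Control cells without SPARK-ON serve to show what lenalidomide does by itself. There were 3 libraries of SPARK-ON cells with lenalidomide, 3 of SPARK-ON cells with its solvent DMSO, 2 of control cells with lenalidomide and 3 of control cells with DMSO. The labels used here give no dose, no time and no clone number for the control cells. Whether replicates were grown as separate cultures is not said either. The p-values therefore reflect the spread among these libraries, which may be technical. A difference between the lines cannot be told apart from a difference between clones.

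The 11 libraries held 6614671 to 21511684 counts, and the shallowest was SPARK-ON lenalidomide replicate 3. MYCN stood at 2090 to 2760 CPM across them, where CPM is a gene's count relative to the scaled library size. Of 10 mesenchymal neuroblastoma markers, 9 had a mean over 5 CPM, while 8 of 9 adrenergic markers had a mean at or under 0.5 CPM and PHOX2A, ISL1 and CHGA were at 0 in all libraries. Summed, the mesenchymal markers ran from 1560 to 1760 CPM in SPARK-ON cells and from 2840 to 2970 CPM in control cells. VIM and CD44 made up most of this sum. With DMSO, VIM (521 ± 17.8 against 1210 ± 138 CPM, SD, n = 3) and CD44 (500 ± 14.4 against 1190 ± 16.1 CPM) were lower in SPARK-ON than in control cells. FN1 (124 ± 5.12 against 82.8 ± 22.9 CPM) and COL1A1 (3.47 ± 0.202 against 2.25 ± 0.392 CPM) went the other way. The DMSO means of NOTCH2, PRRX1, SNAI2, YAP1, TWIST1 and THY1 differed between the lines by less than the SD of the control libraries. Of the epithelial markers, KRT8 was higher in SPARK-ON cells (28 ± 4.34 against 2.85 ± 0.126 CPM). The part of these marker differences in the line differences reported further on was not tested.

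The CACGTG motif, the canonical E-box bound by MYC family proteins with MAX, was searched on both strands in RefSeq promoters (GRCh38.p14, 250 bases before to 50 after each start). The motif is its own reverse complement. Of the 50 genes, 41 had a promoter in the RefSeq table, with 52 windows in all, and 20 windows of 19 genes (38.5% of windows) held the motif. It was in 8.34% of windows of protein-coding genes and in 24.3% of those of other ribosome biogenesis genes. The following stretches of 60 bases, chosen because each holds the motif close to a start site of a gene described here, are printed with CACGTG in capitals and 5′ to 3′ on the gene's own strand.
FBL: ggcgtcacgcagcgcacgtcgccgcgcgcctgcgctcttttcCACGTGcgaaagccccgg
GNL2: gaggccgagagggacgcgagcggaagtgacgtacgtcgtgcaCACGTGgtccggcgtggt
DDX21: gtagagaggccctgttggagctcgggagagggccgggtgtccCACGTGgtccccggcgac
LYAR: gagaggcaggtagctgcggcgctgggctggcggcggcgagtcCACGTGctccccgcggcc
UTP20: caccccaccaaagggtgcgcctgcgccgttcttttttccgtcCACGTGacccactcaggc
NOP10: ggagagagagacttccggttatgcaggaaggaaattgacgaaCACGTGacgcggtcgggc
The FBL stretch is chr19:39846356-39846415 on the minus strand and the GNL2 stretch is chr1:37595917-37595976 on the minus strand. The DDX21 stretch is chr10:68956574-68956633 on the plus strand and the LYAR stretch is chr4:4290068-4290127 on the minus strand. The UTP20 stretch is chr12:101280053-101280112 on the plus strand and the NOP10 stretch is chr15:34343130-34343189 on the minus strand. Counted from the RefSeq start of its window as 1, with no 0, the motif begins at base 7 in FBL and 4 in GNL2. It begins at -10 in UTP20, -11 in NOP10, -31 in DDX21 and -64 in LYAR. DDX21 and LYAR each have 2 windows, and only the window used here holds the motif. A match is a description of letters, not evidence of binding.

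Levels per length, as CPM per kilobase of merged exons, put the abundant nucleolar proteins first. In SPARK-ON cells with DMSO, NPM1, a nucleolar chaperone of ribosome assembly, was at 1010 ± 19.8 (SD, n = 3) and NCL, nucleolin, at 220 ± 2.17. NOP10, the smallest protein of the H/ACA snoRNPs, was at 137 ± 12.1 and DDX21, a nucleolar RNA helicase, at 130 ± 3.17, and these neighbours did not differ beyond their spread. NOLC1, a snoRNP chaperone, followed at 106 ± 3.24 and FBL, fibrillarin, the methyltransferase of box C/D snoRNPs, at 98.2 ± 6.51. The RNA polymerase I genes were lower, from POLR1C at 4.94 ± 0.195 to POLR1E at 31.3 ± 1.11. NCL and NPM1 made up 40.9% to 43.7% of the summed CPM of all 50 genes in every library.

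NOP2 and PPAN, both large subunit factors, were hardly counted, at 0.0532 to 1.62 CPM and 3.3 to 11.1 CPM. In the GENCODE 29 annotation they share 54.4% and 59.8% of their exon bases on the same strand with other genes, and reads over such bases could be left out or split. The readthrough gene PPAN-P2RY11 had 1 count in all libraries together. The gene that shares exons with NOP2 had 0. Values of NOP2 and PPAN are therefore uncertain, and the other 48 genes had means of at least 20 CPM. Of the 50, 14 share over 10% of exon bases with another gene on either strand, and it is not known whether the counting used strand.

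The first comparison asks what lenalidomide did in SPARK-ON cells, where it is meant to bring on n-Myc condensates. Most of the 50 genes stood slightly lower with lenalidomide. The fitted log2 change, lenalidomide over DMSO, was negative for 46 of 50, with a median of -0.13 and a range from -0.36 (NOP16) to 0.28 (NOP2). Over all genes tested, 48.2% were negative and the median was 0.01. Among genes of at least 20 CPM, 56.1% were negative and the median was -0.01. In the fit over all 11 libraries, edgeR's quasi-likelihood test with Benjamini-Hochberg adjustment over all genes called 0 of 50 higher and 0 lower. The same test called 0.0685% of all genes higher and 0% lower, and DESeq2 and limma-voom also called 0 of the 50. At an unadjusted p under 0.05, 10 of 50 were lower, against 1.73% of all genes, and 0 were higher, against 3.62%.

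The levels in single libraries show the same shift without a model. For 30 of 50 genes (60%), all 3 lenalidomide libraries lay below all 3 DMSO libraries, and for 0 of 50 all 3 lay above. Of all genes, 9.62% were separated this way upwards and 8.17% downwards, and 12.2% of genes of at least 20 CPM. The separated genes were 2 of 7 for RNA polymerase I, 6 of 9 for snoRNPs, 6 of 12 for the small subunit, 12 of 18 for the large subunit and 4 of 4 nucleolar RNA-binding and regulatory genes. Leaving out each of the 6 libraries in turn gave 31 to 34 separated genes. Such a count cannot fall when a library is left out, so it is no check on the 30 genes. The summed CPM of the 50 genes was 12260, 12510 and 12600 in the DMSO libraries and 11280, 11330 and 11500 in the lenalidomide libraries.

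**Figure D1:**
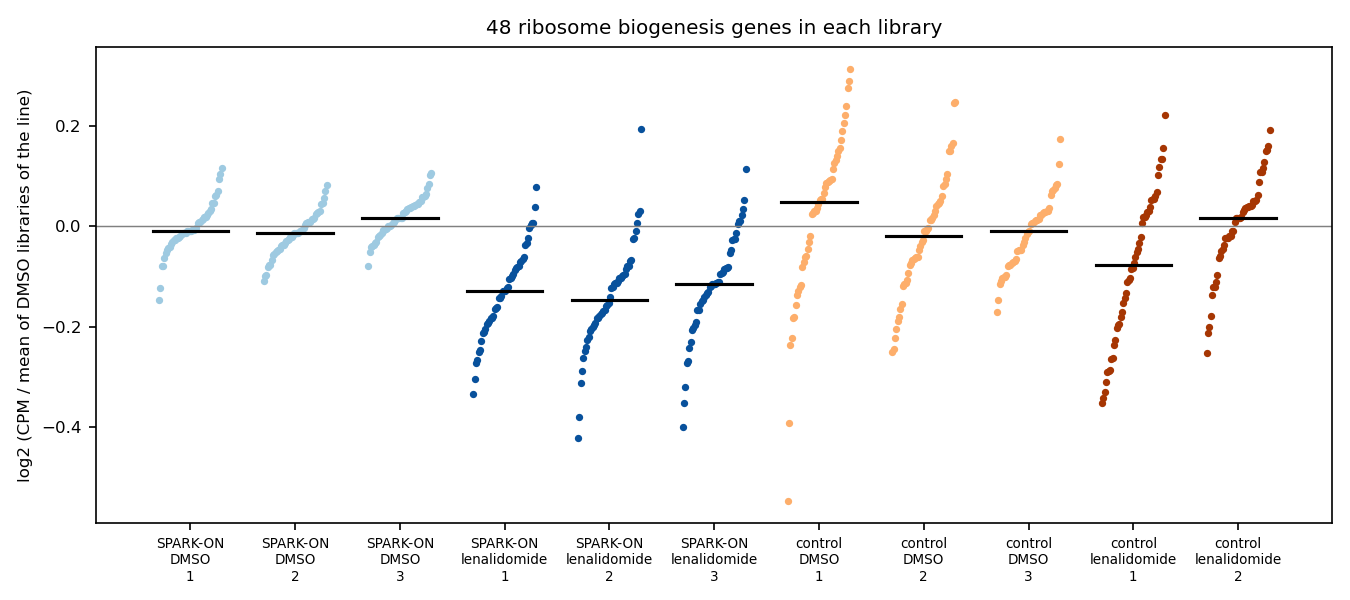
Log2 ratio of CPM to the mean of the DMSO libraries of the same line for 48 genes (NOP2 and PPAN left out) in each of the 11 libraries, with points sorted by value within a library and black bars at the median. The medians of the 3 SPARK-ON lenalidomide libraries sit below those of the 3 SPARK-ON DMSO libraries, and the genes spread more widely in the control DMSO libraries than in the SPARK-ON DMSO libraries.

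Fitted on their own, the 6 SPARK-ON libraries called 13 of 50 genes (26%) lower and 0 higher, against 0.805% of 14652 genes lower (1.46% of genes of at least 20 CPM) and 1.79% higher. The biological coefficient of variation was 4.71% in that fit, 12.9% in a fit of the 5 control libraries and 9.4% in the fit of all 11. The 13 genes stood 9% to 22% lower with lenalidomide. By role they were 1 of 7 for RNA polymerase I, 4 of 9 for snoRNPs, 0 of 12 for the small subunit, 4 of 18 for the large subunit and 4 of 4 nucleolar RNA-binding and regulatory genes. At an unadjusted p under 0.05, 32 of 50 were lower in this fit, against 6.83% of all genes. They were 5 of 7 for RNA polymerase I, 5 of 9 for snoRNPs, 6 of 12 for the small subunit, 12 of 18 for the large subunit and 4 of 4 of the nucleolar RNA-binding and regulatory genes. Without single libraries the count of called genes was 6 (lenalidomide replicate 1), 7 (lenalidomide replicate 2), 12 (lenalidomide replicate 3), 6 (DMSO replicate 1), 12 (DMSO replicate 2) and 7 (DMSO replicate 3). In the same order, 0.259%, 0.379%, 0.766%, 0.278%, 0.522% and 0.39% of all genes were called lower. The p-values that follow for SPARK-ON cells are adjusted p-values of edgeR's quasi-likelihood test in this fit, and those of the fit over all 11 libraries are named as such. The fit of the 6 libraries is an alternative to that main fit. By the same test in the main fit, the adjusted p of the 13 genes ran from 0.367 (LYAR) to 0.973 (FBL).

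All 4 nucleolar RNA-binding and regulatory genes fell in the fit of the 6 libraries. LYAR, a nucleolar zinc finger protein linked to rRNA transcription and processing, was at 89.9, 91.1 and 95.4 CPM with DMSO and at 73.1, 70.8 and 76.5 CPM with lenalidomide. The groups were well apart, and the log2 change was -0.34 (SE 0.057, adjusted p = 3.46e-05). In the fit over all 11 libraries the LYAR change was -0.33 (SE 0.089, adjusted p = 0.367). DDX21 was at 658, 637 and 668 CPM with DMSO and 574, 566 and 618 CPM with lenalidomide, a log2 change of -0.17 (SE 0.039, adjusted p = 0.00671). NCL, which binds the rRNA precursor, was at 1510, 1520 and 1540 CPM with DMSO and 1400, 1350 and 1410 CPM with lenalidomide (log2 change -0.14, SE 0.036, adjusted p = 0.0119). NPM1 was at 3920, 3770 and 3880 CPM with DMSO and 3400, 3610 and 3550 CPM with lenalidomide (log2 change -0.14, SE 0.034, adjusted p = 0.0116). In each of these genes every lenalidomide library was below every DMSO library. In the fit over all 11 libraries the adjusted p was 0.864 for NCL and 0.868 for NPM1.

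Among the snoRNP genes, DKC1 and NOLC1 moved most. DKC1, dyskerin, the pseudouridine synthase of the H/ACA snoRNPs, was at 362, 370 and 371 CPM with DMSO and 318, 319 and 311 CPM with lenalidomide. The spread within each group was small beside the gap, and the log2 change was -0.22 (SE 0.041, adjusted p = 0.000205). NOLC1 was at 417, 410 and 435 CPM with DMSO and 363, 351 and 380 CPM with lenalidomide (log2 change -0.21, SE 0.041, adjusted p = 0.000465). FBL was at 202, 209 and 229 CPM with DMSO and 191, 188 and 197 CPM with lenalidomide (log2 change -0.16, SE 0.046, adjusted p = 0.0373). NOP56, a core protein of the box C/D snoRNPs, was at 325, 310 and 332 CPM with DMSO and 295, 285 and 294 CPM with lenalidomide (log2 change -0.15, SE 0.042, adjusted p = 0.0313). DKC1 and NOLC1 stayed under 0.05 without any single library. FBL did not, and its highest adjusted p over the alternatives was 0.336. The H/ACA partners of DKC1 behaved less uniformly, with log2 changes of -0.07 for GAR1, 0.05 for NHP2 and -0.05 for NOP10 in the fit over all 11 libraries, and none of these 3 was called. Over the 9 snoRNP genes the median was -0.14 and 8 were negative.

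In large subunit assembly, NOP16 had the lowest value of all 50 genes. It was at 58.6, 58.3 and 60.7 CPM with DMSO and 49.2, 44.2 and 44.9 CPM with lenalidomide, a log2 change of -0.36 (SE 0.067, adjusted p = 0.00027). NOP16 shares 20% of its exon bases with genes on the opposite strand, so its counts may include theirs. WDR12, which forms the PeBoW complex with PES1 and BOP1, was at 125, 114 and 127 CPM with DMSO and 101, 114 and 101 CPM with lenalidomide (log2 change -0.21, SE 0.053, adjusted p = 0.0161). Its groups met at lenalidomide replicate 2 and DMSO replicate 2. GNL2, a nucleolar GTPase of large subunit maturation, was at 166, 160 and 170 CPM with DMSO and 139, 150 and 150 CPM with lenalidomide (log2 change -0.18, SE 0.047, adjusted p = 0.0165). EBNA1BP2, a further large subunit factor, was also called (log2 change -0.17, SE 0.045, adjusted p = 0.0227). PES1 and BOP1 had log2 changes of -0.15 and -0.12 in the fit over all 11 libraries and were not called. Of the 18 large subunit genes 16 were negative, with a median of -0.13.

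The RNA polymerase I genes were all on the negative side, and 1 of 7 passed the adjusted threshold in the 6 libraries while 5 were lower at an unadjusted p under 0.05. POLR1B, a core catalytic subunit, was the 1 gene called, at 79.1, 81.6 and 83.5 CPM with DMSO and 65.9, 65.6 and 80 CPM with lenalidomide (log2 change -0.23, SE 0.062, adjusted p = 0.0189). The groups overlapped at lenalidomide replicate 3, the shallowest library. RRN3, the factor that links the polymerase to the rDNA promoter, was at 51.8, 51 and 49.3 CPM with DMSO and 44.8, 42.9 and 43.2 CPM with lenalidomide (log2 change -0.22, SE 0.069, adjusted p = 0.0762). Its groups did not overlap, but it missed the threshold. POLR1A, the largest subunit, was at 122, 130 and 126 CPM with DMSO and 124, 110 and 129 CPM with lenalidomide, a log2 change of -0.06 over all 11 libraries and of 0.003 without lenalidomide replicate 2. UBTF, the upstream binding factor that shapes active rDNA, was at 137, 128 and 141 CPM with DMSO and 129, 114 and 133 CPM with lenalidomide, with overlapping groups.

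Small subunit genes gave 11 of 12 negative values with a median of -0.11, and 0 of 12 were called in either fit, while at an unadjusted p under 0.05 in the 6 libraries 6 were lower. HEATR1, UTP20 and UTP4, parts of the early small subunit processome, had log2 changes of -0.05, -0.02 and -0.03. NOB1, the endonuclease of late small subunit maturation, was at -0.18 and RCL1 at -0.17, all in the fit over all 11 libraries. Among 103 tested further ribosome biogenesis genes, also chosen with earlier results of these data known, 85 were negative with a median of -0.06. Of them, 27 (26.2%) were separated downwards and 1 upwards. In the fit of the 6 libraries 2 of the 103 were called lower, RSL1D1 (log2 change -0.17, adjusted p = 0.00907) and RSL24D1 (log2 change -0.16, adjusted p = 0.0378), and 0 higher. That fit called 0.805% of all genes lower, and 1.46% of genes of at least 20 CPM. The count of 2 is near that share and is no result about the further genes. The 19 genes with a promoter CACGTG had a median of -0.12 with 5 called lower in that fit, and the 22 without had -0.14 with 7.

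**Figure D2:**
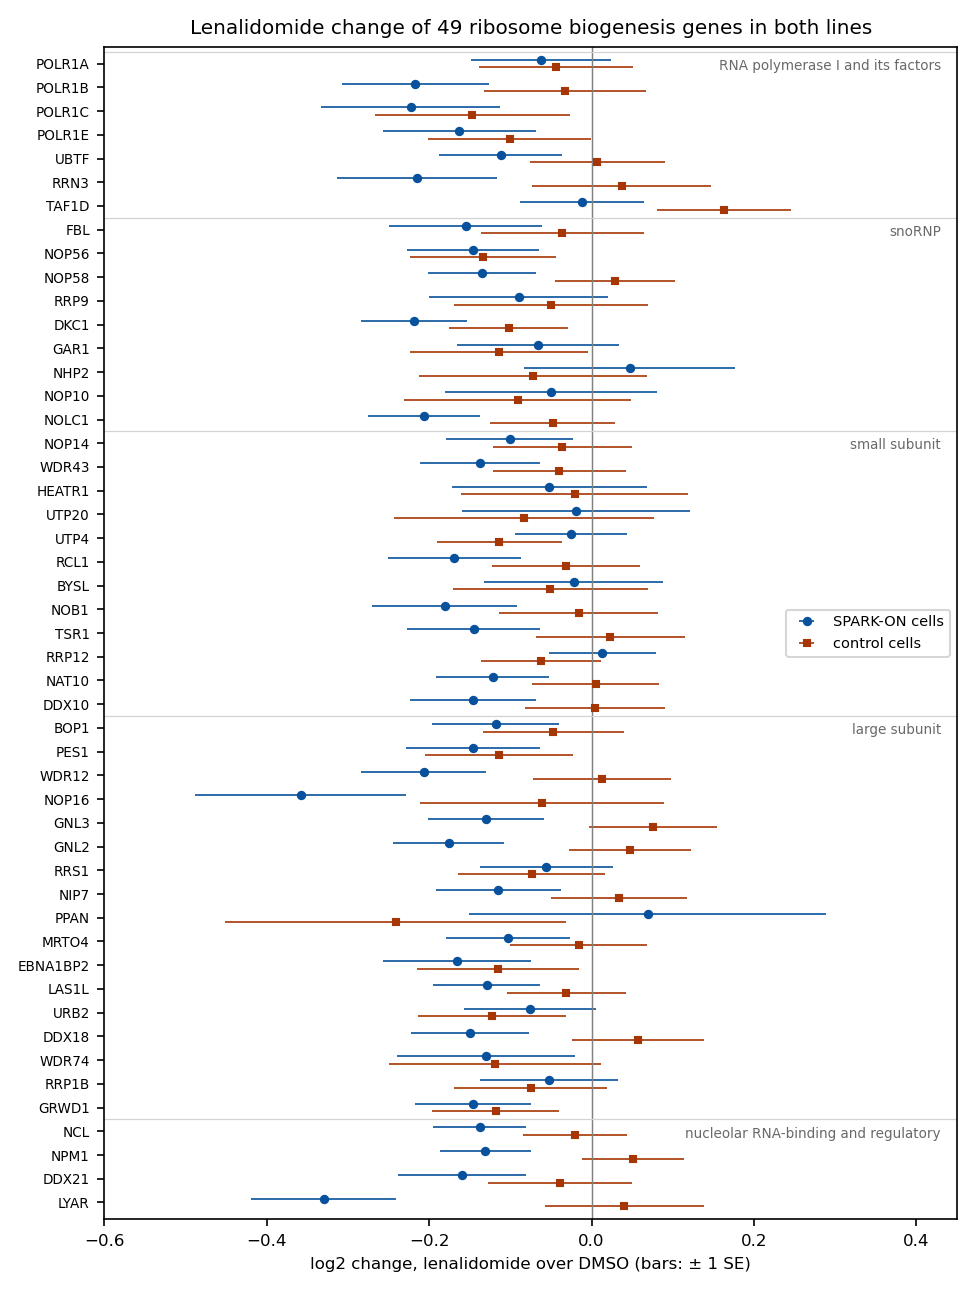
Log2 change, lenalidomide over DMSO, for 49 genes grouped by role (NOP2 is left out for its few counts), with bars of 1 SE from the fit over all 11 libraries, in SPARK-ON cells (circles) and control cells (squares). In SPARK-ON cells the points lie mostly between -0.25 and 0, with LYAR and NOP16 lowest, and in control cells they lie on both sides of 0 with wider bars.

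**Figure D3:**
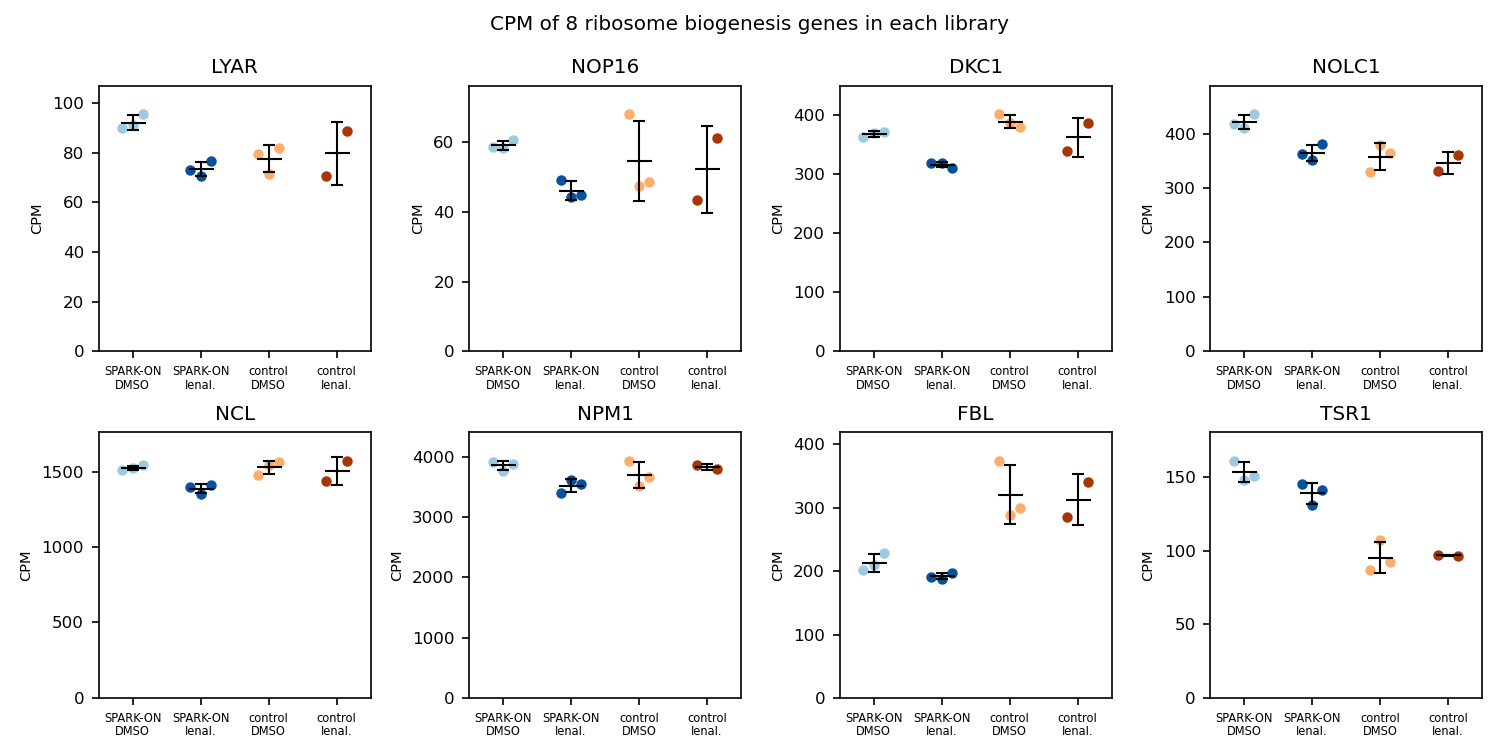
CPM of 8 genes in each library, from 0, by group, with the mean and SD as black bars. LYAR, NOP16, DKC1, NOLC1, NCL, NPM1 and FBL are lower with lenalidomide in SPARK-ON cells in every library, FBL is lower and TSR1 higher in SPARK-ON than in control cells.

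The same drug comparison in control cells asks what lenalidomide did without SPARK-ON. The test over all 11 libraries called 0 of 50 genes higher and 0 lower, beside 0.0374% and 0.00623% of all genes, and DESeq2 and limma-voom also called 0. At an unadjusted p under 0.05, 1 gene was lower (1.94% of all genes), the hardly counted NOP2, and 0 were higher (2.88%). The median was -0.04 with 36 of 50 negative, against 0 for all genes, and it was 0.02 without lenalidomide replicate 1 and -0.09 without replicate 2. For 4 genes (8%) both lenalidomide libraries lay below all 3 DMSO libraries, against 6.86% of all genes, and for 1, TAF1D, both lay above, against 7.69%. TAF1D, a subunit of the promoter selectivity factor of RNA polymerase I, was at 104, 105 and 97.2 CPM with DMSO and 119 and 110 CPM with lenalidomide. Its log2 change was 0.16 and it was not called. NOP56 was at 360, 293 and 294 CPM with DMSO and 270 and 305 CPM with lenalidomide. UTP4 was at 181, 159 and 162 CPM with DMSO and 155 in both lenalidomide libraries. GRWD1, a WD-repeat protein of the large subunit pathway, was at 174, 167 and 162 CPM with DMSO and 148 and 161 CPM with lenalidomide. DKC1 was at 401, 386 and 379 CPM with DMSO and 339 and 386 CPM with lenalidomide. None of these passed the test. NOP2 was at 1.3, 0.595 and 1.62 CPM with DMSO and 0.569 and 0.0532 CPM with lenalidomide, from few counts. NCL was at 1480, 1540 and 1560 CPM with DMSO and 1440 and 1570 CPM with lenalidomide. POLR1A was at 114, 139 and 135 CPM with DMSO and 130 and 121 CPM with lenalidomide. Both groups overlapped in these 2 genes, as they did in the next pair. POLR1B was at 86.3, 88.2 and 87.7 CPM with DMSO and 93.8 and 77.2 CPM with lenalidomide. RRN3 was at 37.7, 47.1 and 48.4 CPM with DMSO and 48.7 and 42.5 CPM with lenalidomide.

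The control libraries disagreed among themselves more than the SPARK-ON libraries did. The median coefficient of variation of the 50 genes was 8.16% and 7.57% in the control groups with DMSO and lenalidomide, and 3.18% and 3.88% in the SPARK-ON groups. Gene length moved with this spread. Over 48 genes, each control library's deviation from the other libraries of its line had a Spearman rho with merged exon length of -0.63, 0.64 and 0.28 in DMSO replicates 1, 2 and 3 and of 0.61 and -0.68 in lenalidomide replicates 1 and 2. In SPARK-ON libraries rho was between -0.28 and 0.27. Over 7809 genes of at least 20 CPM the control values were -0.62, 0.54, 0.44, 0.42 and -0.47, and the same pattern was thus seen across genes in general. In control DMSO replicate 1 the 12 shortest genes (up to 2862 bases) had a median deviation of 0.21 and the 12 longest (from 6001 bases) -0.08. UTP20, at 10024 bases, was at 94.6, 164 and 156 CPM in the control DMSO libraries, whereas NHP2, at 1510 bases, was at 110, 76 and 83.9 CPM. Between groups, rho over the 48 genes was at most 0.12 in size. These correlations are descriptions over genes that share libraries, and the part of length in the control result was not tested. Without control DMSO replicates 1, 2 and 3, both control lenalidomide libraries lay below every remaining control DMSO library for 10, 7 and 6 of 50 genes. Such counts cannot fall when a library is left out, and the share over all genes was not computed for them. They are therefore no result about these genes.

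**Figure D4:**
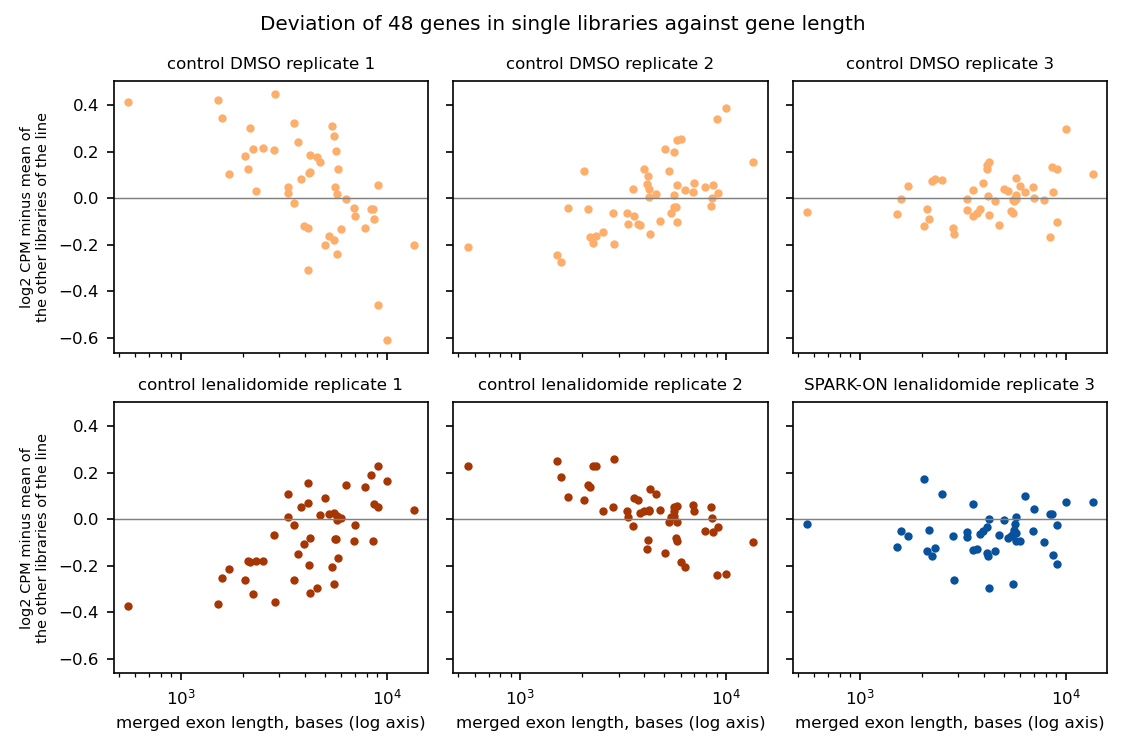
Deviation of 48 genes, as log2 CPM minus the mean of the other libraries of the line, against merged exon length in bases (log axis), for the 5 control libraries and SPARK-ON lenalidomide replicate 3. Short genes are high in control DMSO replicate 1 and control lenalidomide replicate 2 and low in control DMSO replicate 2 and control lenalidomide replicate 1.

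The difference in response, SPARK-ON minus control, is the direct test of whether the lenalidomide change depends on SPARK-ON. It called 0 of 50 genes higher and 0 lower, and 0% of all 16056 genes in either direction, and DESeq2 and limma-voom called 0 of the 50. At an unadjusted p under 0.05, 3 of the 50 were lower (1.89% of all genes) and 1, NOP2, was higher (2.28%). The median was -0.09 with 38 of 50 negative, against 0.005 for all genes, and it was -0.15 without control lenalidomide replicate 1 and -0.05 without replicate 2. LYAR had a difference of -0.37 (SE 0.13) and NPM1 of -0.18 (SE 0.084), each with an adjusted p of 1 from edgeR's quasi-likelihood test. In control cells LYAR was at 79.6, 71.5 and 81.8 CPM with DMSO and 70.8 and 88.7 CPM with lenalidomide, so its 2 lenalidomide libraries enclosed the DMSO ones. The groups of the next genes overlapped in control cells too. NPM1 was there at 3930, 3510 and 3660 CPM with DMSO and 3860 and 3800 CPM with lenalidomide. GNL2 was at 178, 167 and 178 CPM with DMSO and 178 and 182 CPM with lenalidomide. WDR12 was at 136, 133 and 124 CPM with DMSO and 136 and 129 CPM with lenalidomide. GNL2 differed by -0.22, WDR12 by -0.22 and GNL3, nucleostemin, by -0.21. GNL3 was at 284, 243 and 259 CPM with DMSO and 231, 245 and 242 CPM with lenalidomide in SPARK-ON cells, and at 299, 274 and 284 CPM and 310 and 293 CPM in control cells. NOP2, with a difference of 2.25, was at 0.54, 0.66 and 0.665 CPM with DMSO and 0.848, 0.856 and 0.441 CPM with lenalidomide in SPARK-ON cells. A p that misses the threshold does not show that the lines responded alike.

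The line comparison with DMSO asks how SPARK-ON cells differed from control cells before lenalidomide. Of the 50 genes, 4 (8%) were higher and 6 (12%) lower in SPARK-ON cells, beside 21.1% of all genes higher and 20.4% lower, so a smaller share of the 50 than of all genes was called. The median was 0.01, as over all genes. With libraries scaled by total counts alone, 9 were higher and 5 lower and the median was 0.10. That scaling shifted the median of all genes by 0.09 with DMSO and by 0.11 with lenalidomide. The comparison shares its SPARK-ON DMSO libraries with the drug comparison, so the values of both stand side by side here.

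TSR1, a small subunit maturation factor, had the largest positive line change. It was at 161, 148 and 151 CPM in SPARK-ON and 86.7, 107 and 92.3 CPM in control cells, a log2 change of 0.69 (SE 0.082, adjusted p = 1.86e-06 by edgeR's quasi-likelihood test). TSR1 shares 20.8% of its exon bases with SGSM2 and SRR on the opposite strand, which had changes of 0.69 and 0.71. The other 3 higher genes were NOLC1 (0.23, adjusted p = 0.011), RCL1 (0.26, adjusted p = 0.0161) and LYAR (0.25, adjusted p = 0.0304), by the same test. Without SPARK-ON DMSO replicate 2 or replicate 3 the count of higher genes was 2. With lenalidomide TSR1 remained at 145, 131 and 141 CPM against 97.2 and 96.4 CPM (log2 change 0.52, adjusted p = 0.000208 by edgeR's quasi-likelihood test), and it was the 1 gene called higher there. Without control lenalidomide replicate 1 or control DMSO replicate 1, 2 genes were.

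FBL had the lowest fitted value among well-counted genes, at 374, 288 and 300 CPM in control cells with DMSO against 202, 209 and 229 CPM in SPARK-ON cells (log2 change -0.59, SE 0.093, adjusted p = 5.47e-05 by edgeR's quasi-likelihood test). GRWD1 was at 130, 126 and 118 CPM in SPARK-ON and 174, 167 and 162 CPM in control cells (log2 change -0.43, SE 0.07). BOP1 was at 271, 271 and 276 CPM against 397, 326 and 334 CPM (log2 change -0.37, SE 0.078). In all 3 genes no SPARK-ON library reached a control library. POLR1E, a subunit peripheral to the RNA polymerase I core, was at 77.6, 81.8 and 76.6 CPM against 114, 93.2 and 106 CPM (log2 change -0.41, SE 0.092). UBTF was at 137, 128 and 141 CPM against 153, 165 and 160 CPM (log2 change -0.23, SE 0.075). The sixth, PPAN, was at 3.6, 5.08 and 4.55 CPM against 10.1, 7.67 and 11.1 CPM, with the limits on its counting given above. By role, the lower genes were 2 of 7 for RNA polymerase I, 1 of 9 for snoRNPs, 3 of 18 for the large subunit and 0 of the other roles.

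Position on chromosome 19 moved with the line difference. FBL, GRWD1 and PPAN are the 3 of the 50 genes on chromosome 19, and all 3 were lower in both line comparisons, as were all 5 further ribosome biogenesis genes there. The 1097 tested genes of chromosome 19 had a median of -0.58 with DMSO and of -0.55 with lenalidomide, with 60.1% and 54.7% called lower. The FBL change of -0.59 was thus near its chromosome's median. On chromosome 17, which holds TSR1 and UBTF, the median of 957 genes was 0.22 with DMSO, and 34.7% were called higher. UBTF went the other way from that median. The part of position in these changes was not tested, and the drug comparisons within a line had chromosome 19 medians of 0.01 and -0.04. Among the further ribosome biogenesis genes, 16 of 103 were higher and 17 lower with DMSO, against 21.1% and 20.4% of all genes. A smaller share of them than of all genes was thus called. The 17 include the 5 on chromosome 19. WDR18, a member of a complex that processes rRNA spacers, was at -1.19, EXOSC5, an exosome subunit, at -0.88 and PELP1, a partner of WDR18, at 0.68. TCOF1, the treacle protein that supports rDNA transcription, was at 0.48.

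**Figure D5:**
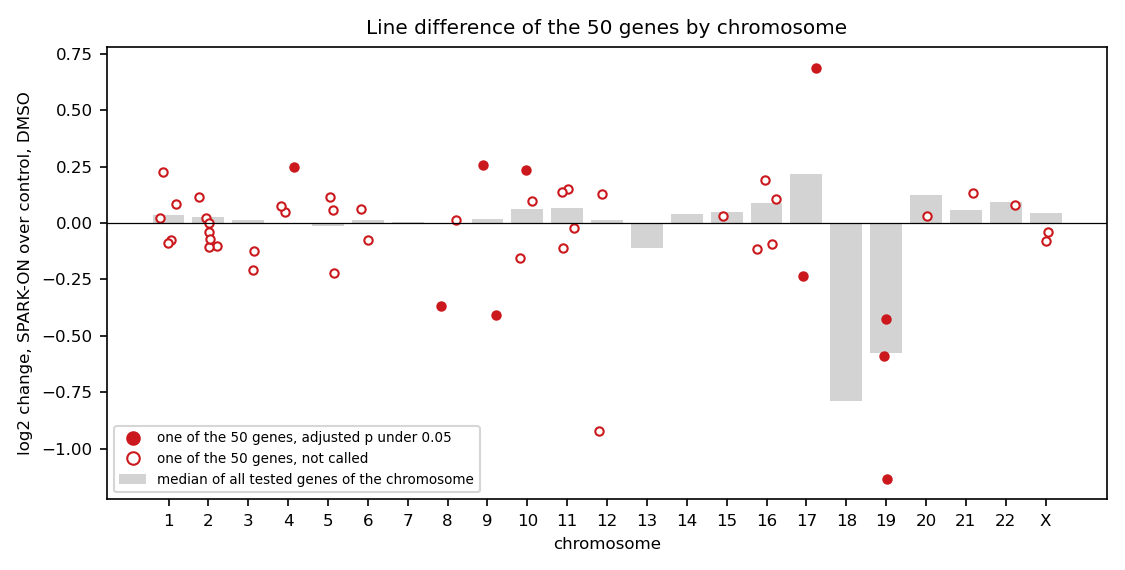
Log2 change, SPARK-ON over control with DMSO, of the 50 genes (circles, filled where the adjusted p was under 0.05, spread sideways at random) by chromosome, with grey bars at the median of all tested genes of the chromosome. FBL, GRWD1 and PPAN are the 3 filled circles on chromosome 19, where the bar is at -0.58.

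With lenalidomide in both lines, the count of lower genes was larger. Of the 50, 1 was higher (2%) and 15 lower (30%), beside 19.7% of all genes in each direction, and the median was -0.07 against 0.02 for all genes. With total-count scaling 2 were higher and 9 lower, and the median was 0.04. Without control lenalidomide replicate 1 the median was -0.15 and without replicate 2 it was -0.03. All 6 genes lower with DMSO were lower here too, with FBL at -0.71 (SE 0.1), POLR1E at -0.47, GRWD1 at -0.45, BOP1 at -0.44, UBTF at -0.35 and PPAN at -0.82. In the 3 lenalidomide libraries of SPARK-ON cells FBL was at 191, 188 and 197 CPM, against 285 and 341 CPM in control cells. POLR1E was at 68.3, 64.4 and 79.3 CPM against 91.3 and 103 CPM, and UBTF was at 129, 114 and 133 CPM against 157 and 163 CPM. No library of SPARK-ON cells reached a control library in these 3 genes. BOP1 was at 258, 253 and 243 CPM against 319 and 363 CPM, and GRWD1 at 114, 111 and 112 CPM against 148 and 161 CPM, also without overlap. The other 9 were GNL3, WDR12, GNL2, POLR1B, DDX18, DDX21, NIP7, DDX10 and DKC1, from -0.33 (GNL3) to -0.20 (DKC1). By role, 8 of 18 large subunit genes, 3 of 7 of RNA polymerase I, 2 of 9 of snoRNPs, 1 of 12 of the small subunit and 1 of the 4 nucleolar RNA-binding and regulatory genes were lower. That 9 more genes were called than with DMSO is a difference between calls, and the difference itself, which is the difference in response, was called for 0 genes. Of the further genes, 11 of 103 were higher and 22 lower, beside the same 19.7% of all genes in each direction.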

How the data were processed

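PolyA RNA libraries of SH-EP cells were compared in 4 groups taken from the sample titles. The deposited table holds raw counts per gene in whole numbers, and per the submitters' processing notes FastQC, fastp, HTSeq, edgeR and hg38 were used, with versions, aligner and strand setting not given in the sources used here. Of its 14 columns, 3 could not be matched to a labelled sample and were not used, so comparisons with baseline cells were not made. Symbols came from a table of gene names, which matched 61369 of 61533 identifiers without version. The 50 genes, their roles and the further 104 genes (103 tested) were chosen with earlier results of these data known.

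The analysis used edgeR 4.0.16 in R 4.3.3: filterByExpr (minimum count 10), TMM scaling, a model of 4 group means leaving 7 residual degrees of freedom, and two-sided quasi-likelihood tests of 5 comparisons, adjusted by Benjamini-Hochberg over all genes at 0.05. SE is the size of the log2 change over the square root of its F statistic. Alternatives were other scalings, no filter, DESeq2 1.42.0, limma-voom (limma 3.58.1), fits of only the groups compared, a replicate block, a threshold of 0.01 and each library left out. The alternatives within the 6 SPARK-ON libraries, the counts of separated genes without single libraries and the background at 20 CPM were chosen after seeing the data. The test was tried on simulated counts first. A count of 3, the limit that a count of 0 allows, is 0.143 to 0.441 CPM, for counting error only. Values in every library of the comparison are given for the 6 genes with the smallest p in each comparison, the 8 with the smallest p in the 6 SPARK-ON libraries, and in both lines for NCL, NPM1, FBL, POLR1A, POLR1B, UBTF and RRN3. Exon lengths and overlaps are from GENCODE 29, and 98.1% of tested genes had a length. Figures were drawn with matplotlib 3.10.9. One planned marker gene is not reported here.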

Additional observations from a re-analysis of the deposited data

How the results depend on the processing

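Of the values under all alternatives of the genes given in every library, in the 5 comparisons and the fit of the 6 SPARK-ON libraries, 876 kept direction and side of the threshold, 30 lost the call, 21 gained it and 1 reversed: POLR1A in SPARK-ON cells with lenalidomide was 0.003 without SPARK-ON lenalidomide replicate 2, in a range from -0.105 to 0.003 when each library was left out. The other genes of the 50 were followed only in the counts and medians. The causes of these moves were not tested.

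At an adjusted p of 0.01 the line comparison with DMSO called 1 of the 50 genes and 9 of the further genes higher. At that threshold the line comparison with lenalidomide called 9 of the 50 lower and 7 of the further genes higher. The fit of the 6 SPARK-ON libraries then called 5 of the 50 lower, against 0.246% of all genes. With total-count scaling the line comparison with DMSO called 9 of the 50 higher with a median of 0.098, and 34 further genes higher and 11 lower. Under that scaling the line comparison with lenalidomide called 2 of the 50 higher and 9 lower with a median of 0.037, and 23 further genes higher and 13 lower. DESeq2 called 2 of the 50 higher in the line comparison with lenalidomide. The share of all genes called is not given for these settings of the line comparisons. Their counts show only how the calls moved with the processing. Fitting only the groups compared gave 13 of the 50 and 2 further genes lower with lenalidomide in SPARK-ON cells, against 0.805% of all genes. With the replicate block added to that fit these were 11 and 1, against 0.614% of all genes. Whether replicate numbers pair the libraries was not settled with so few libraries per group. Correlations of the deviations of same-numbered libraries ran from -0.182 to 0.015, and 2 of 3 SPARK-ON lenalidomide libraries correlated best with their own number. In the fit over all libraries the block moved no count of calls among the 50 by over 1.5 times.

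Leaving out each library in turn, the 50 genes gave 2 to 6 higher in the line comparison with DMSO and 1 to 2 higher with lenalidomide, and the further genes 10 to 23 and 7 to 14. Medians ran from -0.09 to 0.016 for lenalidomide in control cells, from -0.147 to -0.025 for the line comparison with lenalidomide and from -0.149 to -0.045 for the difference in response. The fit of the 6 SPARK-ON libraries called 6 to 12 lower. In control cells 4 genes were below every DMSO library with all libraries kept, and 6 to 25 with 1 library left out. The count of 25 arose with 1 control lenalidomide library left. A count of this kind cannot fall when a library is left out, and its share over all genes was not computed. The range of 6 to 25 is therefore no result about these genes. A group left with 1 library was taken to vary like the others. The control group with lenalidomide had 2 libraries, which limits every comparison that uses it, and SPARK-ON lenalidomide replicate 3 held 30.7% of the counts of the deepest library.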
